A study of Mus musculus with 21 samples.

Results

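The genes described here are 3 markers of the zones of the olfactory epithelium, Nqo1, Acsm4 and Ncam2, and the 4 genes of the nuclear factor I family, Nfia, Nfib, Nfic and Nfix. They were chosen by name, and all 7 were found in both deposited tables of RNA levels, which held 23587 and 22918 genes after symbols turned into dates were left out. Levels are in TPM, an abundance corrected for gene length and scaled to the same total in each of the 21 libraries. The libraries were made from the main olfactory epithelium of mice, after papain digestion and sorting on mCherry. All mice carried the gg8tTA driver of immature olfactory sensory neurons (OSN), alone or with OMPtTA, the driver of mature OSN. The drivers switched on either tetO-HyperTRIBE_mCherry (HT), an RNA-editing domain by itself, or tetO-Mex3a_HyperTRIBE_mCherry (MexHT), in which that domain is fused to the RNA-binding protein Mex3a. With both drivers there were 3 HT OSN, 6 MexHT OSN, 3 HT negative and 5 MexHT negative libraries. The gg8tTA driver without OMPtTA gave 2 MexHT OSN and 2 MexHT negative libraries and had no HT counterpart. OSN libraries are mCherry-positive cells, immature and mature OSN with both drivers and immature OSN with gg8tTA, and negative libraries are the mCherry-negative cells of the same mouse, per the labels. The sixth MexHT OSN library had no negative counterpart, and the age of the mice is not given in the sources used here. Every mouse carried a construct with the editing domain, so no group is free of it.

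OSN of the dorsal and the ventral epithelium choose from different sets of odorant receptors and differ in a few other genes. Nqo1, a quinone reductase of the antioxidant response, and Acsm4, a medium-chain acyl-CoA synthetase of the olfactory epithelium, are classical markers of the dorsal zone. Ncam2, an immunoglobulin-domain adhesion molecule also known as OCAM, marks OSN outside the dorsal zone. NFI proteins bind DNA as dimers at a palindrome, and NFI A, B and X have been linked to the receptor choice of ventral OSN. Zone is a property of position in the tissue, and these libraries pool cells from the whole of it.

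The genes lie on 5 chromosomes of the mouse genome build GRCm38, in the GENCODE M21 annotation. Nqo1 spans chr8:107388225-107403206 on the minus strand, Acsm4 chr7:119690026-119714565 on the plus strand and Ncam2 chr16:81200697-81626828 on the plus strand. Nfia (chr4:97772734-98118874, plus strand) and Nfib (chr4:82290173-82705750, minus strand) share a chromosome, while Nfic lies at chr10:81396186-81455635 and Nfix at chr8:84699876-84800344, both on the minus strand. No exon of another annotated gene overlaps those of Nqo1, Acsm4, Ncam2 or Nfib. Opposite-strand genes overlap 0.04% of the exon bases of Nfia, 1.09% of those of Nfic and at most 1.86% of those of Nfix, and the strand setting of the counting is not given in the sources used here.

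The 250 bases before the annotated start of the 3 zone markers are shown because Nqo1 and Acsm4 moved together in some libraries and apart in others. They come from RefSeq, build GRCm38.p6, where 6 of the 7 genes have an entry. Capitals mark matches on either strand to TTGGC, the NFI half-site, to the full NFI palindrome, a half-site and its reverse complement with 5 bases between them, to CCCNNGGG, the core bound by Ebf factors of OSN, or to TGACNNNGC, the antioxidant response core.
Nqo1, chr8:107403206-107403455, minus strand: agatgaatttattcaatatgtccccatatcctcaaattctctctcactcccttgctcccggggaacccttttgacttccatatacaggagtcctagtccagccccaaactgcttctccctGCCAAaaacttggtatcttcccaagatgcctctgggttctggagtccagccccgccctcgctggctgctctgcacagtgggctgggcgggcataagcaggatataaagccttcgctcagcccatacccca
Acsm4, chr7:119689776-119690025, plus strand: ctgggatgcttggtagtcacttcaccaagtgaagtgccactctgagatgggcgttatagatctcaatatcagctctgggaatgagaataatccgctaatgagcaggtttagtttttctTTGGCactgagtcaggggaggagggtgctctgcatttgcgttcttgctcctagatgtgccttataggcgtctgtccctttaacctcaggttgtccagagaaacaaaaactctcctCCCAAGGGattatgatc
Ncam2, chr16:81200447-81200696, plus strand: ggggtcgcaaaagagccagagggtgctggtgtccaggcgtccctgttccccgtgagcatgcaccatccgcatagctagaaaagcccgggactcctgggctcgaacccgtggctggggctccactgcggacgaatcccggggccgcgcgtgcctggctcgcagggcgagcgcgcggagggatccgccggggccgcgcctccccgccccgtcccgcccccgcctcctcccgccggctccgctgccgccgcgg

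Both dorsal markers held an NFI half-site in this window, and Ncam2 held none of the 4 motifs. The half-site lay at bases -130 to -126 from the Nqo1 start and -132 to -128 from the Acsm4 start. Acsm4 also held an Ebf core at -17 to -10. Of 32851 promoter windows of the same length, 41.5% held the half-site, 11.8% the Ebf core, 10.2% the antioxidant response core and 0.0365% the full palindrome. The windows were 53.2% G and C for Nqo1, 47.2% for Acsm4 and 75.2% for Ncam2, against a median of 52.4% over all windows. A match describes these letters and says nothing of binding.

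The labels were checked against marker genes before the levels were read. Mex3a reached 328.5 to 1271 TPM in MexHT OSN with both drivers, and 24.0 to 61.5 TPM in HT OSN. The summed TPM of 14 mature OSN markers was 13090 to 19150 in HT OSN, 3732 to 8970 in MexHT OSN, 7671 to 15360 in HT negative and 1184 to 9996 in MexHT negative libraries. With gg8tTA the same sum was 988.9 to 1874 among OSN libraries and 11060 to 19050 among negative ones, so the negative cells were rich in mature OSN transcripts. The 2 gg8tTA OSN libraries differed from each other, with Gap43 at 671.6 and 93.8 TPM and progenitor sums of 500.1 and 1465 TPM. Omp was at 164 and 53.8 TPM, Mex3a at 460 and 1632 TPM and Xist at 0.44 and 159 TPM. The part of this in the gg8tTA comparison was not tested. The third HT OSN library stood apart in its summed immune markers, at 4655 TPM against 1673 and 1162 TPM in the other two. The first stood apart in its summed sustentacular markers, at 1606 TPM against 434.9 and 450.1 TPM. Among MexHT OSN, library 5 had the highest progenitor sum, at 1204 TPM against 374.5 to 674.5 TPM in the others. It also had the highest Mex3a, at 1271 TPM, and the lowest Omp, at 682 TPM. Both Xist and Y-linked transcripts reached 1 TPM in 14 of 21 libraries, though the labels speak of a single mouse. Whether cells of several mice were pooled was not tested, so a mouse here means a replicate number of the labels. Recovered depth was 7425287 to 15180717 counts per library, and the 7 genes had between 58 and 5025 counts in any library. In these bulk samples, fewer cells of a type and less RNA per cell cannot be told apart.

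**Figure D1:**
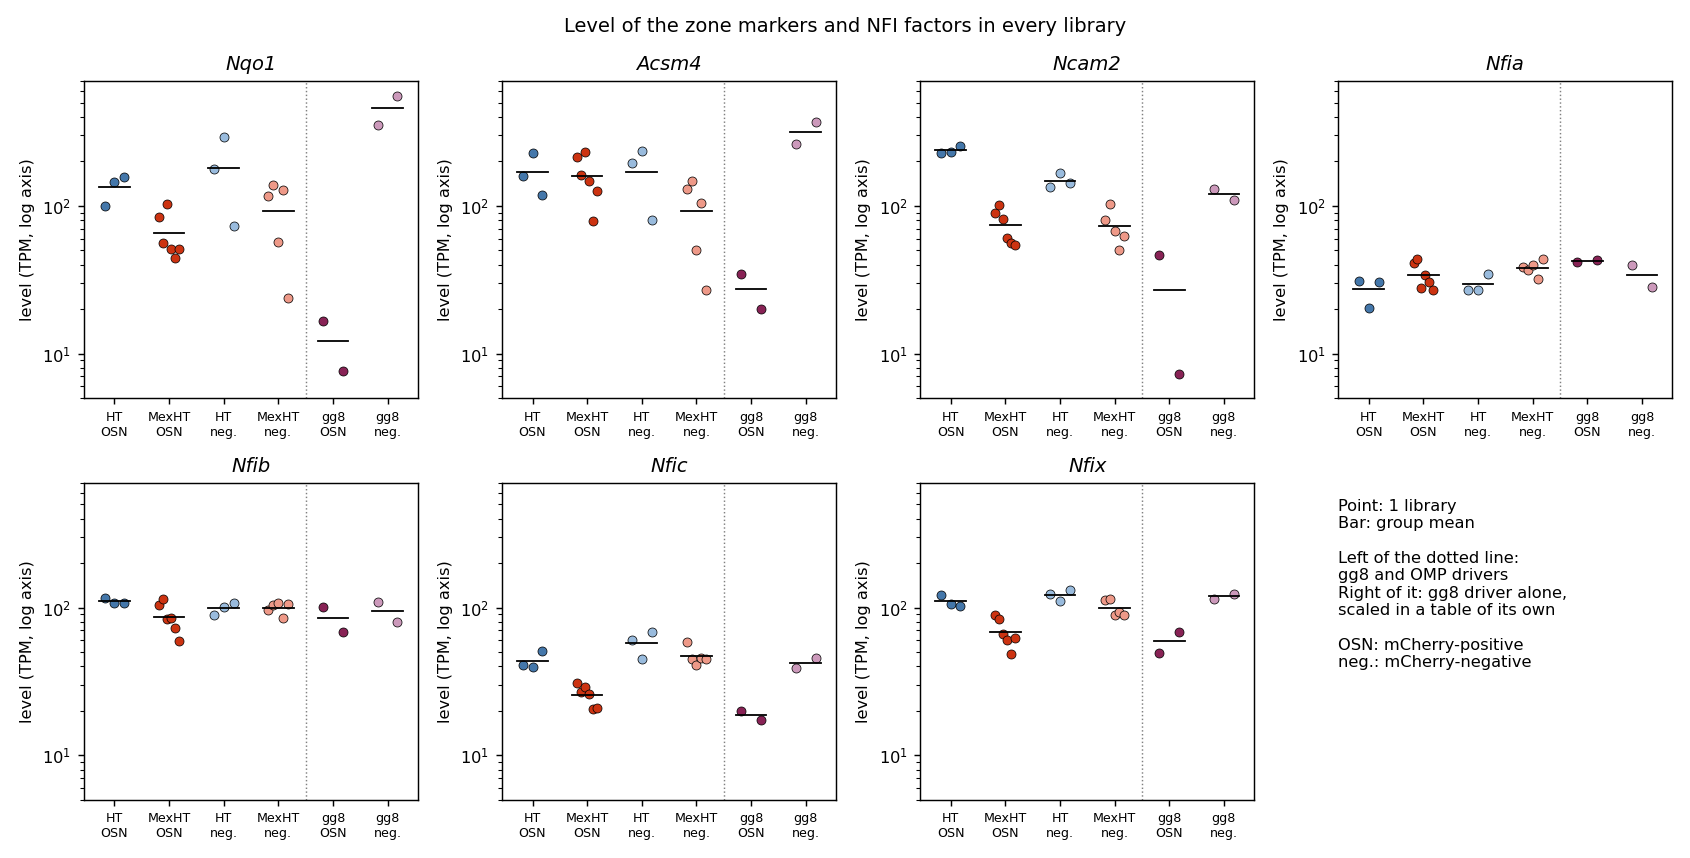
Level of each gene in TPM (log axis) in every library, by group. Points are libraries and bars are group means. The widest range is that of Nqo1 in the gg8tTA libraries, from 7.66 to 558 TPM, and Ncam2 in the 6 MexHT OSN libraries lies below all 3 HT OSN libraries.

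Nqo1 was at 100.2, 146 and 157 TPM in the 3 HT OSN libraries. In the 6 MexHT OSN libraries it ran from 44.4 to 104 TPM with a median of 53.6 TPM, and 5 of the 6 lay below every HT OSN library. HT negative libraries held 177, 294 and 72.9 TPM. The third of these was below every HT OSN library and the other two above them all. The 5 MexHT negative libraries had 117, 139, 56.7, 128 and 23.6 TPM of Nqo1. The 2 gg8tTA OSN libraries were the lowest of all, at 16.6 and 7.66 TPM, while their negative counterparts were the highest, at 355 and 558 TPM.

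Acsm4 was at 160.4, 227 and 118 TPM in HT OSN, and MexHT OSN covered the same range, from 78.4 to 233 TPM with a median of 155 TPM. In negative cells it followed Nqo1. HT negative libraries had 194, 236 and 80.1 TPM and MexHT negative libraries 131, 148, 50.5, 105 and 26.9 TPM, so the third HT and libraries 3 and 5 of MexHT negative cells were low for both dorsal markers. These 3 libraries also had the lowest mature OSN sums of their groups, at 7671 TPM in HT negative and 2422 and 1184 TPM in MexHT negative cells, and the part of this in the result was not tested. With gg8tTA, Acsm4 was at 34.7 and 20.0 TPM in OSN and at 264 and 369 TPM in negative cells.

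Ncam2 was the most tightly held of the 3 markers in HT OSN, at 229, 230.3 and 254 TPM. MexHT OSN had 54.2 to 101 TPM with a median of 71.3 TPM, so no MexHT OSN library came near the HT OSN range. HT negative libraries lay between them, at 134, 166 and 142 TPM, and MexHT negative libraries at 80.7, 102, 67.2, 50.3 and 62.7 TPM. The 2 gg8tTA OSN libraries differed from each other, at 46.5 and 7.32 TPM, and their negative counterparts had 130.4 and 109 TPM.

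In the NFI family, Nfib and Nfix were the abundant members and Nfia and Nfic the scarce ones by their means in every group. Over the 17 libraries with both drivers Nfib varied least of the 4. Its root mean square about its own mean was 0.246 in log2(TPM + 1), against 0.280 for Nfia, 0.392 for Nfix and 0.490 for Nfic. Nfib was at 111 ± 5.13 TPM (SD, n = 3) among HT OSN and at 86.5 ± 20.2 TPM (n = 6) in MexHT OSN, where it spread most. Negative libraries had 98.8 ± 8.86 TPM (n = 3) for HT and 99.7 ± 8.74 TPM (n = 5) for MexHT. Nfia stayed between 20.3 and 43.9 TPM in all 21 libraries. Nfic and Nfix moved more, and in the same groups. Nfix was at 122, 106 and 102 TPM in HT OSN, and at 48.5 to 88.5 TPM in MexHT OSN with a median of 64.3 TPM. In negative cells Nfix was at 123, 110.3 and 131 TPM for HT and at 88.8 to 114 TPM for MexHT. Nfic was at 40.8, 39.6 and 51.0 TPM in HT OSN and at 20.4 to 31.1 TPM in MexHT OSN, so neither gene's MexHT OSN libraries overlapped HT OSN. Negative cells had 60.6, 44.7 and 68.2 TPM of Nfic in HT and 40.8 to 58.7 TPM in MexHT. The gg8tTA OSN libraries had 19.8 and 17.5 TPM of Nfic and 49.1 and 68.8 TPM of Nfix, below their negative counterparts at 38.8 and 45.3 TPM of Nfic and 114 and 124 TPM of Nfix.

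The order of the genes by level changed between groups. In HT OSN Ncam2 came first in 3 of 3 libraries, followed by Acsm4 and Nqo1, whose order differed among the libraries. In MexHT OSN Acsm4 came first in 6 of 6 libraries, followed by Nfib, which was above Ncam2 in 6 of 6, and Ncam2, Nfix and Nqo1 then followed within their spread. In both negative groups the neighbours among the first places were not separated, and Nqo1 was above Acsm4 in 1 of 3 HT and 2 of 5 MexHT libraries. With gg8tTA, Nqo1 went from the last place in OSN to the first in negative cells. Nfic and Nfia took the 2 last places in all 4 groups with both drivers, with Nfic above Nfia in all libraries of 3 of these groups and Nfia above Nfic in 5 of 6 MexHT OSN libraries.

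The comparison of MexHT with HT in OSN addressed what the Mex3a fusion adds to the editing domain. Ncam2, Nqo1, Nfic and Nfix fell, so 4 of the 7 genes passed the test, all downwards, where 36.8% of the 16067 genes tested were called and 16.8% were called lower (limma, Benjamini-Hochberg adjusted p under 0.05). Ncam2 fell by 1.71 on the log2(TPM + 1) scale (SE 0.20, limma adjusted p = 0.000322), a 3.28-fold lower level. Nqo1 fell by 1.08 (SE 0.27, adjusted p = 0.0109), Nfic by 0.75 (SE 0.16, adjusted p = 0.00565) and Nfix by 0.71 (SE 0.18, adjusted p = 0.0115). Ncam2, Nfic and Nfix were lower in 6 of 6 MexHT libraries than in every HT library, a separation in that direction seen in 16.9% of genes tested. Acsm4, the other dorsal marker, had a change of -0.11 (SE 0.32, adjusted p = 0.814), Nfia of 0.31 (SE 0.20, adjusted p = 0.238) and Nfib of -0.39 (SE 0.18, adjusted p = 0.122). The median over all genes tested was 0.027.

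Xist ran alongside this comparison. It was at 58.4 to 140 TPM in all 6 MexHT OSN libraries and at 0.126, 60.3 and 0.140 TPM in HT OSN. With the Xist level as a covariate none of the 7 genes was called, and 329 genes in all. Ncam2 then had a change of -1.55 (limma adjusted p = 0.0619), Nqo1 of -1.15 (0.212), Nfic of -0.51 (0.316) and Nfix of -0.53 (0.354). Without the third HT OSN library, the one rich in immune markers, all 4 calls held, with adjusted p from 0.00186 to 0.0468, and 5026 genes were called in place of 5907. Without the first HT OSN library Nfix had an adjusted p of 0.0578, the other 3 calls held, and 3745 genes were called. Without the second HT OSN library 3886 genes were called. Nqo1 was also lost when all 4 groups were fitted together (adjusted p = 0.0968), and with the replicate number as a block.

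The mature OSN list was lower for 14 of 14 genes in MexHT OSN, 12 of them called, with a median of -1.35. Of all genes tested, 36.8% were called and 16.8% were called lower. Of the 15 immature OSN markers, 11 were called higher and none lower, with a median of 0.85, and 6 of 10 immune markers were called lower, with a median of -1.60. The part of these shifts in the members' changes was not tested.

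**Figure D2:**
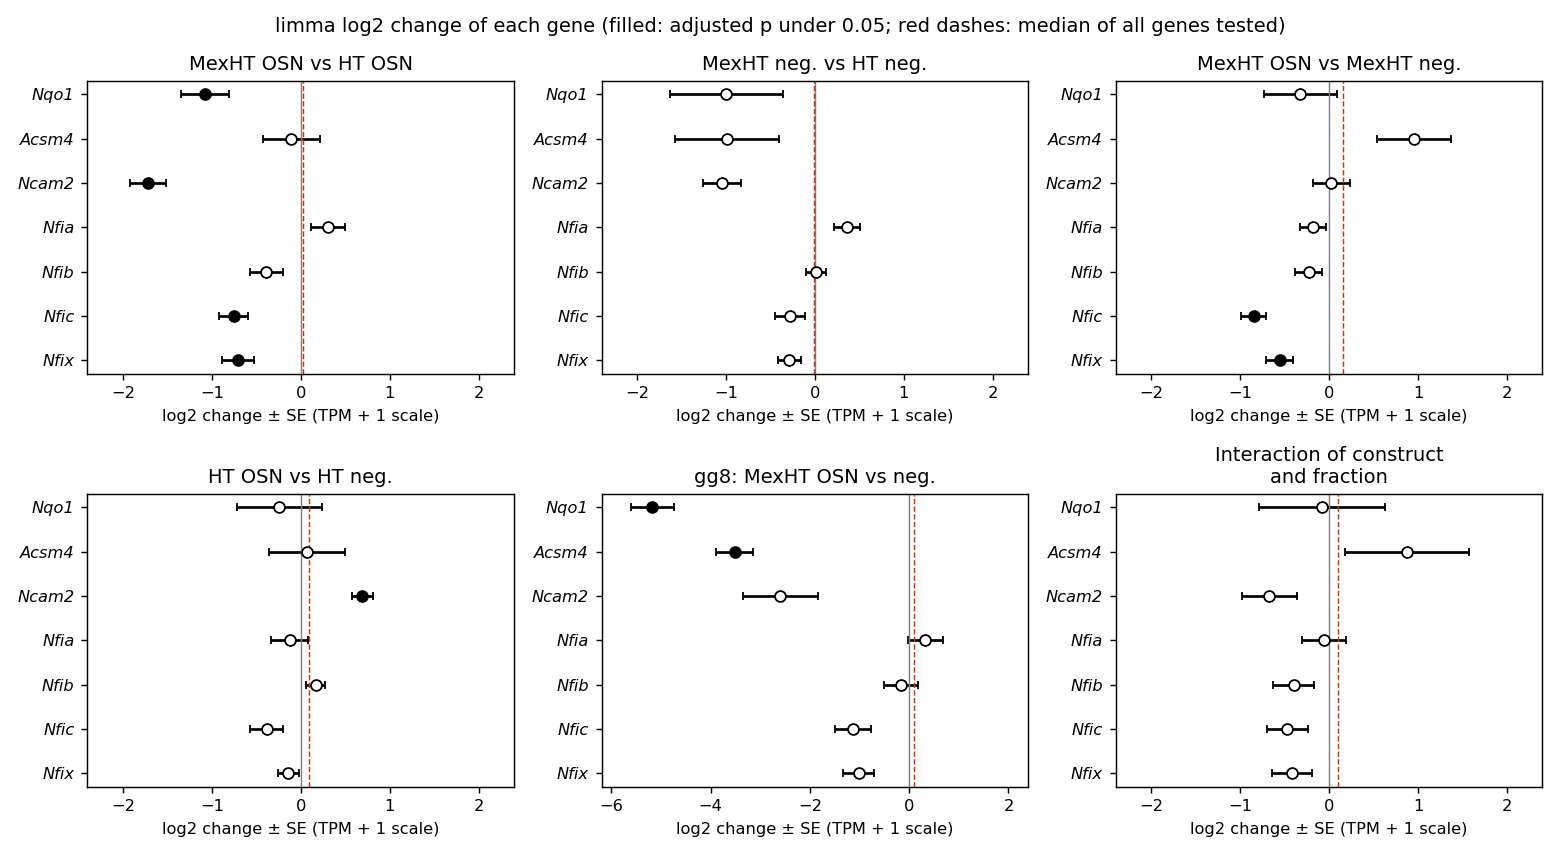
Change of each gene in the 5 comparisons and the interaction, as limma log2 change with its standard error on the log2(TPM + 1) scale. Filled points passed an adjusted p of 0.05, and red dashes mark the median of all genes tested. Acsm4 lies near 0 in the first comparison, where Nqo1 and Ncam2 lie at -1.08 and -1.71. The axis of the gg8 panel is wider than the others.

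In mCherry-negative cells the same comparison of constructs called none of the 7 genes and none of the 16860 genes tested (0%) by limma, while 3465 genes had an unadjusted p under 0.05. voom called 0 genes as well. Ncam2 was lower in all 5 MexHT negative libraries than in the 3 HT negative ones, a separation in that direction seen in 5.07% of genes tested, with a change of -1.04 (SE 0.21, limma adjusted p = 0.218). Nqo1 and Acsm4 had changes of -0.998 (SE 0.64, adjusted p = 0.372) and -0.986 (SE 0.59, adjusted p = 0.341), with overlapping libraries. The 4 NFI genes had changes of 0.36 for Nfia, 0.01 for Nfib, -0.28 for Nfic and -0.29 for Nfix, with adjusted p from 0.229 to 0.957. The mature OSN list was lower for 14 of 14 genes here too, with a median of -1.56 and none called.

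Within the MexHT mice the OSN were compared with the negative cells of the same animals. Nfic and Nfix fell, so 2 of the 7 genes passed the test, where 63.4% of 16522 genes were called and 27.6% were called lower. Nfic fell by 0.85 (SE 0.14, limma adjusted p = 0.000174) and Nfix by 0.55 (SE 0.15, adjusted p = 0.0064). Both were lower in OSN than in every negative library, a separation in that direction seen in 19.6% of genes, and lower in 5 of 5 pairs. Acsm4 was higher in OSN in 5 of 5 pairs, with a change of 0.95 (SE 0.42, adjusted p = 0.0625), and with the mouse as a block it rose by 1.00 (SE 0.27, limma adjusted p = 0.0102). Nqo1 went up in 2 pairs and down in 3, with a change of -0.32 (SE 0.41, adjusted p = 0.514), and without MexHT negative library 5 it had -0.74 (adjusted p = 0.0422). Ncam2 had a change of 0.02 (SE 0.21, adjusted p = 0.931), Nfia of -0.18 and Nfib of -0.23, none called. The median over all genes was 0.16 in this comparison, and median-of-ratios scaling brought it to 0.03. Under that scaling Ncam2 had -0.11 and Nfib fell by 0.36 (adjusted p = 0.0354), and voom also called Nfia at -0.35 (adjusted p = 0.0434).

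In HT mice Ncam2 was the one gene of the 7 called between OSN and negative cells, where 11.3% of 17027 genes were called and 2.18% were called higher. The HT negative cells were themselves rich in OSN transcripts, with Omp at 1093 to 2159 TPM against 1785 to 2704 TPM in HT OSN. The mature OSN list was higher for 14 of 14 genes, 0 of them called, with a median of 0.54. Of the 15 immature OSN markers 1 was called higher. A gene not called here is thus not shown to be equal in neurons and other cells. Ncam2 rose by 0.69 (SE 0.12, limma adjusted p = 0.0141), a 1.62-fold higher level, and was above every negative library in 3 of 3 OSN libraries. The call was lost without the first or second HT OSN library (adjusted p = 0.0605 and 0.0575), without the first HT negative library (0.0712) and with all 4 groups in a single fit (0.0647). Nfib also lay above every negative library, as did 22.9% of genes tested, with a change of 0.17 (SE 0.11, adjusted p = 0.29). Nqo1 had -0.24 (SE 0.48), Acsm4 0.07 (SE 0.43), Nfic -0.38 (SE 0.19), Nfix -0.14 (SE 0.12) and Nfia -0.13 (SE 0.21), none called. Without the second HT negative library Nfic was called as well (-0.55, adjusted p = 0.0486).

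The interaction asked whether the difference between OSN and negative cells itself differed between MexHT and HT. None of the 7 genes passed, where 12.4% of 16785 genes were called. Ncam2 had an interaction of -0.67 (SE 0.31, limma adjusted p = 0.166), and with the mouse as a block it was -0.59 (SE 0.16, adjusted p = 0.0311), which passed. Acsm4 had 0.88 (SE 0.70, adjusted p = 0.443), Nfic -0.47 (SE 0.24, adjusted p = 0.207), Nfix -0.42 (0.249) and Nfib -0.40 (0.272). Nqo1 had -0.08 with a wide SE of 0.71, and Nfia had -0.06 (SE 0.25). The difference between Nfic and Nfix calls in MexHT mice and none in HT mice is therefore not shown to be a difference between the constructs.

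**Figure D3:**
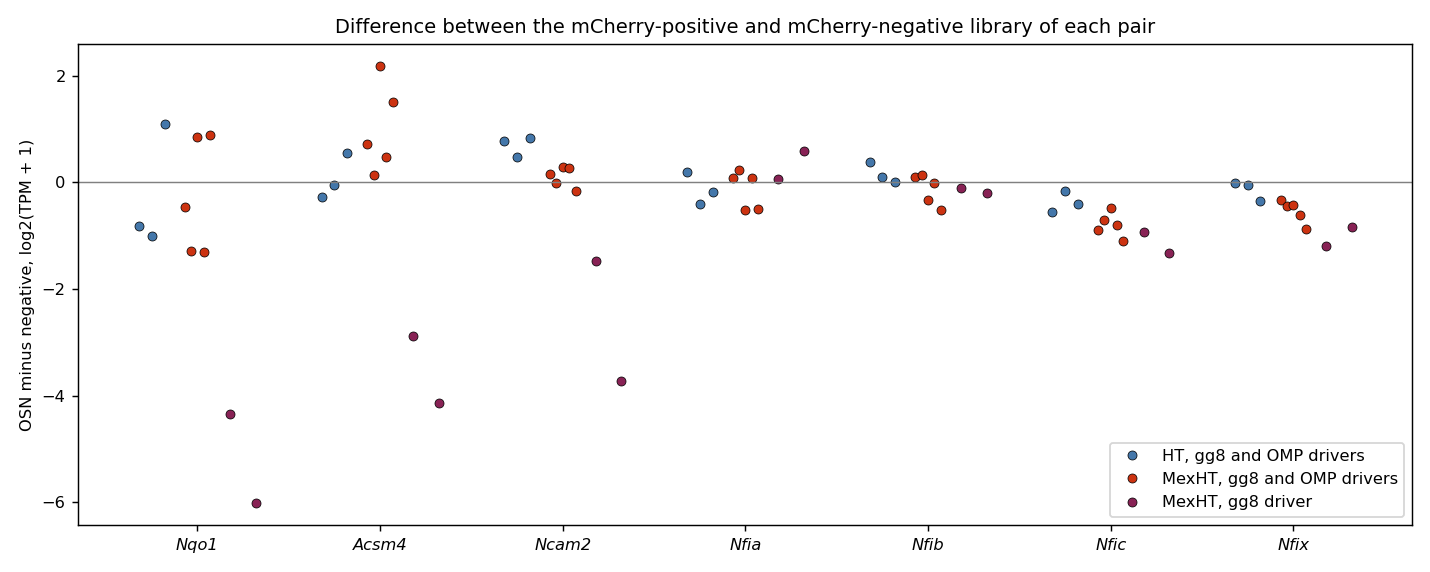
Difference of log2(TPM + 1) between the OSN and the negative library of each mouse, 1 point per pair, for HT (3 pairs) and MexHT (5 pairs) with both drivers and MexHT with gg8tTA (2 pairs). Nfic and Nfix lie below 0 in every pair, Acsm4 lies above 0 in all 5 MexHT pairs, and both gg8tTA pairs are far below 0 for Nqo1 and Acsm4.

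With gg8tTA, which labels immature OSN, the dorsal markers fell in OSN against the negative cells of the same mice. Nqo1 fell by 5.18 (SE 0.44, limma adjusted p = 0.00742), a 36.2-fold lower level, and Acsm4 fell by 3.52 (SE 0.37, adjusted p = 0.0118), an 11.4-fold lower level. They were the 2 of the 7 genes called, where 8.32% of 16490 genes were called and 7.2% were called lower. Ncam2 had a change of -2.60 (SE 0.76, adjusted p = 0.0826), and with the mouse as a block it fell by 2.60 with a limma adjusted p of 0.03. Its 2 pairs were at -1.47 and -3.73, and with 2 pairs that fit takes its spread largely from the other genes. Nfic had -1.13 (SE 0.37, adjusted p = 0.1004) and Nfix -1.02 (SE 0.31, adjusted p = 0.0866). Nfia at 0.32 (SE 0.36) and Nfib at -0.16 (SE 0.34) were not called. Nqo1, Acsm4, Ncam2, Nfic, Nfix and Nfia separated the groups, as 63.6% of genes did with 2 libraries on either side.

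Neither dorsal marker kept its call without the first or the second gg8tTA negative library (adjusted p = 0.272 and 0.386 for both genes), or without the second gg8tTA OSN library (0.0749 for Nqo1 and 0.0767 for Acsm4). No gene was called in those 3 fits, against 3703 genes without the first OSN library, where Ncam2 was also called (-3.85, adjusted p = 0.0114). Leaving out a library puts a single one in a group, which is then assumed to vary like the other group. With all gg8tTA libraries, the mature OSN list was lower for 14 of 14 genes, 10 of them called, where 7.2% of all genes were called lower. Its median was -3.98. Of the 15 immature OSN markers, 9 were higher in gg8tTA OSN and 6 lower, with 1 called higher and 0 lower. Their median was 0.14 against 0.09 over all genes, so the immature list hardly separated these OSN from the negative cells. The part of either list in the members' changes was not tested. Only the gg8tTA libraries carry Jan20 in their names and only those with both drivers Sept19, so what the driver and what the date adds cannot be told apart.

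The balance between the zone markers was read within each library as a difference of log2(TPM + 1), and no test was made on it since it combines chosen genes. In HT OSN, Acsm4 minus Ncam2 was -0.54 ± 0.54 (SD, n = 3), and in MexHT OSN it was 1.06 ± 0.39 (n = 6). The highest HT OSN library, at -0.02, lay below the lowest MexHT OSN library, at 0.49. Nqo1 minus Ncam2 was -0.84 ± 0.30 in HT OSN and -0.21 ± 0.38 in MexHT OSN, and there the ranges overlapped. In negative cells with both drivers, both differences were near 0 on average but spread over more than the OSN libraries did. Nqo1 minus Ncam2 ran from -0.96 to 0.82 in HT negative and from -1.37 to 1.33 in MexHT negative libraries. With gg8tTA, Nqo1 minus Ncam2 was -1.44 and 0.06 in OSN and 1.44 and 2.34 in negative cells. Acsm4 minus Ncam2 was -0.41 and 1.34 in gg8tTA OSN and 1.01 and 1.75 in their negative counterparts.

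The 2 dorsal markers stayed level with each other in negative cells with both drivers and parted in MexHT OSN. Nqo1 minus Acsm4 was 0.02 ± 0.26 (n = 3) in HT negative and 0.00 ± 0.21 (n = 5) in MexHT negative libraries, although the level of each gene varied several-fold among those libraries. In MexHT OSN it was -1.27 ± 0.26 (n = 6), from -1.51 to -0.81, so Acsm4 exceeded Nqo1 in every library and no MexHT OSN library overlapped a MexHT negative one. HT OSN had -0.67, -0.63 and 0.41. With gg8tTA the difference was -1.03 and -1.28 in OSN and 0.43 and 0.59 in negative cells.

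**Figure D4:**
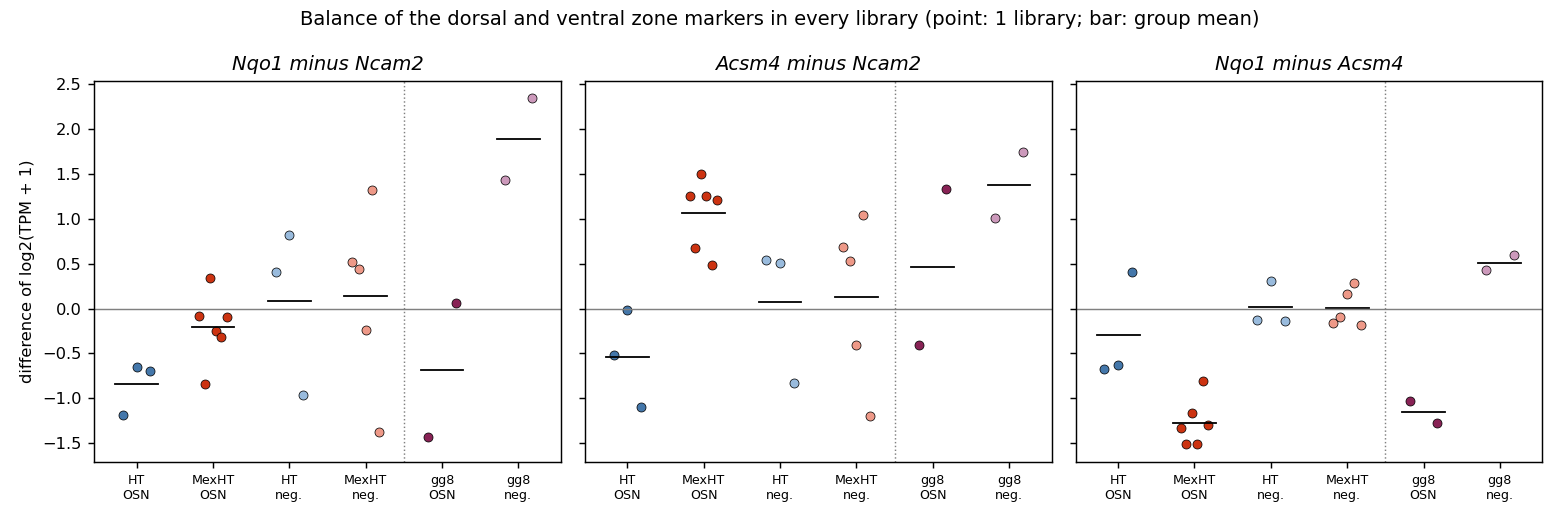
Difference of log2(TPM + 1) between 2 zone markers in every library. Points are libraries and bars are group means. In the third panel the 8 HT and MexHT negative libraries lie between -0.18 and 0.31, while the 6 MexHT OSN libraries lie between -1.51 and -0.81.

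The summed NFI level was lower in MexHT OSN than in the other groups with both drivers. It was 292 ± 18.3 TPM (SD, n = 3) among HT OSN, 214 ± 43.1 TPM (n = 6) in MexHT OSN, 308 ± 30.3 TPM (n = 3) in HT negative and 284 ± 19.5 TPM (n = 5) in MexHT negative libraries. All 6 MexHT OSN sums, from 169 to 268 TPM, lay below the lowest HT OSN sum of 274 TPM. With gg8tTA the sum was 212 and 198 TPM in OSN and 303 and 277 TPM in negative cells. The make-up shifted with it. Nfia and Nfib together gave 47.3% ± 0.436 of the sum in HT OSN and 56.0% ± 3.50 in MexHT OSN, with 46.8% to 47.6% against 50.8% to 60.1%. Nfia alone went from 9.3% to 15.9% of the sum and Nfix from 37.7% to 31.9%. Negative cells had 41.8% ± 3.16 for Nfia and Nfib in HT and 48.6% ± 4.04 in MexHT. The gg8tTA OSN libraries had 67.5% and 56.4%, above their negative counterparts at 49.4% and 38.9%. No test was made on these sums and shares.

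**Figure D5:**
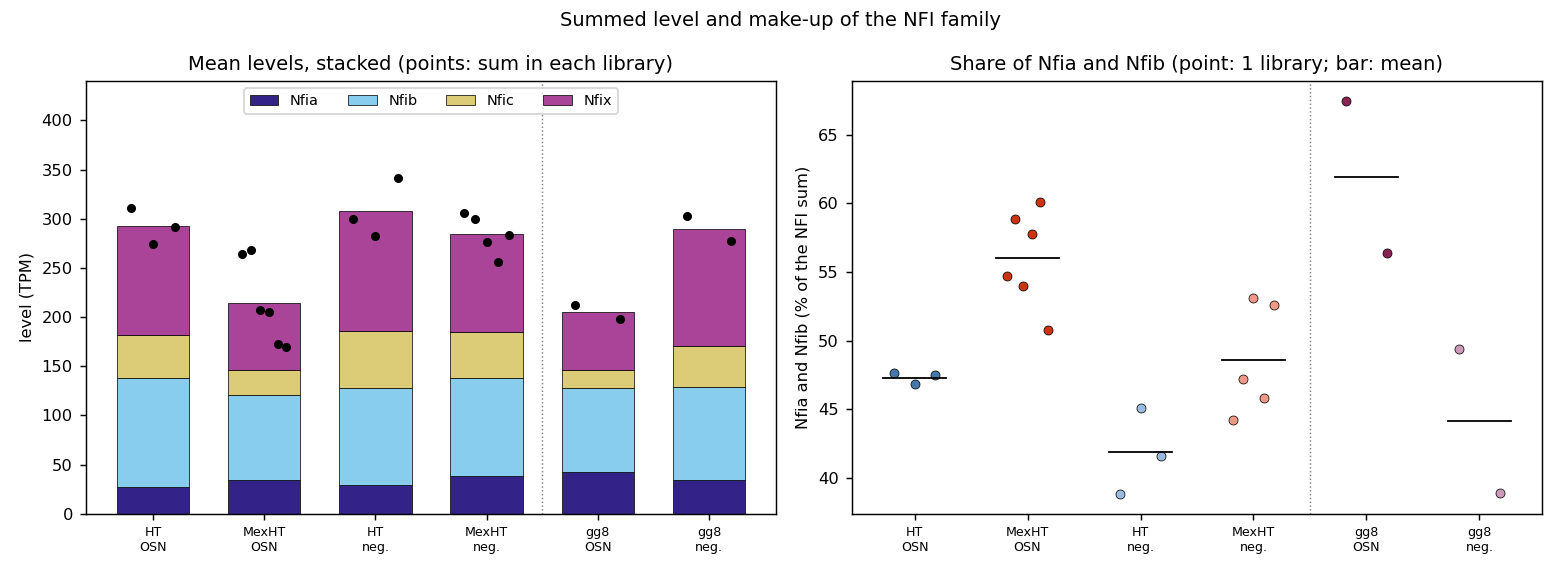
Left, mean level of the 4 NFI genes stacked by group, in TPM, with the sum in each library as a point. Right, share of Nfia and Nfib in that sum, in percent, 1 point per library with the group mean as a bar. The 6 MexHT OSN sums lie below the 3 HT OSN sums, and their Nfia and Nfib shares, 50.8% to 60.1%, lie above the HT OSN shares. The axis on the right does not start at 0.

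Other zonal genes were read from a list of 16 dorsal genes, of which 13 passed the filter on low values, and one of 4 ventral genes. In MexHT against HT OSN, 2 of the 13 dorsal genes were called lower and none higher, where 16.8% of all genes were called lower, so the count was near that background. The list had a median of -1.29 against 0.03 over all genes, and 12 of the 13 had a negative change. The called genes were the trace amine receptors Taar2 (-2.05, limma adjusted p = 0.0197) and Taar3 (-2.62, adjusted p = 0.0101). Both were low and uneven. Taar2 averaged 0.66 TPM in MexHT OSN and ran from 1.40 to 17.65 TPM in HT OSN. Taar3 averaged 0.55 TPM in MexHT OSN and ran from 1.39 to 31.9 TPM in HT OSN. All tested genes of the list besides Robo2 and Sema3f were such receptors, so its median mostly describes them. The guidance receptor Robo2 was the one positive value, at 0.52 (adjusted p = 0.184), and the guidance ligand Sema3f had -0.41 (adjusted p = 0.0931). Of the ventral list, the odorant receptors Olfr1507 (-2.44, adjusted p = 0.0105) and Olfr1509 (-1.18, adjusted p = 0.0305) were called lower, Olfr1508 had -1.64 (adjusted p = 0.0928) and the guidance receptor Nrp2 had 0.22 (adjusted p = 0.277). With gg8tTA, 4 of 15 dorsal and 3 of 4 ventral genes were called lower in OSN and none higher, where 7.2% of all genes were called lower, with medians of -1.90 and -2.55 against 0.09 over all genes.

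Nqo1 is a textbook target of the antioxidant factor encoded by Nfe2l2, and 11 further genes of that pathway were read beside it. In MexHT against HT OSN, 4 of the 11 were called lower and 1 higher, with a median of -0.32. Of all genes tested there, 36.8% were called and 16.8% were called lower. Nfe2l2 itself fell by 1.66 (SE 0.15, limma adjusted p = 9.58e-05), from 333 ± 42.4 to 105 ± 16.8 TPM. Hmox1, Gclm and Srxn1 fell by 0.91, 0.72 and 0.98, and Gclc rose by 0.46. In MexHT OSN against negative cells 7 were called lower and 1 higher. Of all genes in that comparison, 63.4% were called and 27.6% were called lower. Between MexHT and HT negative cells none was called, nor was any other gene. The interaction was called for 3 of the 11 and for 12.4% of all genes. These 3 were Nfe2l2 at -1.42 (SE 0.23, limma adjusted p = 0.0018), Gclm at -1.23 (0.00335) and Slc7a11 at -1.35 (0.0397). Nqo1 had -0.08 with a wide SE of 0.71, and whether it differs from these 3 was not tested. With gg8tTA, Nfe2l2 was called lower (-2.02, adjusted p = 0.0333) and none of the other 10, where 7.2% of all genes were called lower.

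Retinoic acid, a signal of zonal patterning in this tissue, was followed through 15 genes of its synthesis, breakdown and receptors, 12 of which passed the filter in OSN. In MexHT against HT OSN the reductase gene Dhrs3 fell by 2.24 (limma adjusted p = 0.000319), the receptor gene Rxra by 1.66 (adjusted p = 0.000428) and Rarb by 0.96 (adjusted p = 0.0146), and no gene of the list was called higher. The median of the list was 0.15. Of all genes tested, 36.8% were called and 16.8% were called lower. Dhrs3 and Rxra also had called interactions, at -1.56 (adjusted p = 0.00835) and -1.55 (adjusted p = 0.00189), as did 12.4% of all genes. With gg8tTA, 6 of 13 were called lower in OSN, with a median of -1.63, where 7.2% of all genes were called lower.

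Ncam2 was set beside 10 other genes of neuronal adhesion. In MexHT against HT OSN, 6 of them were called higher and 1 lower, where 36.8% of all genes were called and 16.8% were called lower. Their median was 0.59 against 0.027 over all genes, the opposite side from Ncam2. Cntn2 rose by 3.02 (limma adjusted p = 0.000142), Nrcam by 1.55 (adjusted p = 0.00142) and Chl1 by 1.36 (adjusted p = 0.0127), all of them adhesion molecules of growing axons, and Cntn4 fell by 0.82 (adjusted p = 0.033). Ncam1, the paralog of Ncam2, had a change of 0.10 (SE 0.17, adjusted p = 0.675), from 686 ± 88.9 to 740 ± 130.2 TPM. Of the 4 other genes of the Acsm family, the single one that passed the filter in OSN was Acsm3, at 1.40 TPM in MexHT and 1.98 TPM in HT OSN, far below Acsm4 on this per-length scale.

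Genes whose pattern over the 17 libraries with both drivers lay nearest to each member were found by the root mean square difference of log2(TPM + 1) after centring each gene. For Nqo1 these were Cartpt (0.398), Glyatl3 (0.405) and Bcl6 (0.434), against 1.01 for the median gene. Acsm4 lay nearest to Lrrc3b (0.245), Syn2 (0.280) and Dusp14 (0.308), and Ncam2 to Ddb2 (0.236), Wdr78 (0.244) and Iqch (0.245). The NFI genes had close neighbours since they varied little. Nfia lay nearest to Ppp1cc (0.174), Nfib to Uso1 (0.119), Nfic to Tmbim4 (0.205) and Nfix to Rab21 (0.162), against medians of 0.535, 0.533, 0.745 and 0.661. The neighbours of Nqo1 and Ncam2 were called lower in MexHT OSN, as those 2 genes were, with Glyatl3 at -1.89 (limma adjusted p = 0.000831) and Iqch at -1.81 (adjusted p = 0.000718). Those of Acsm4 had -0.31, -0.17 and -0.14, none called. The neighbours were picked over libraries that include those OSN libraries, so their likeness in this change follows from how they were chosen. The points share libraries and the distance is a description with no test.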

How the data were processed

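RNA levels were read from 2 tables of TPM values that the authors deposited, one for the 17 libraries with both drivers and one for the 4 gg8tTA libraries. Per the labels' protocols, RNA was extracted with TRIzol and libraries were made with a stranded low-input total RNA kit. The submitters' processing notes name mm10, FastQC, cutadapt, STAR and bedtools; the counting program and annotation are not given in the sources used here. The tables were scaled separately, so tests stayed within a table. Of the symbols in each, 27 had turned into dates (at most 0.221% of TPM) and were left out. Whole counts were recovered from the TPM steps for 23613 of 23614 and 22752 of 22785 genes (tolerance 0.01 and 0.05 counts), gave the depth, and were refitted with voom.

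Each comparison was fitted with limma 3.58.1 (R 4.3.3) on log2(TPM + 1), two-sided, keeping genes whose mean over the fitted libraries was 1 TPM or more, with Benjamini-Hochberg adjustment over all genes tested and a threshold of 0.05. Fold changes on this scale understate changes of low genes. P-values measure the spread between libraries within groups, and the main fits of OSN against negative cells did not use the pairing by mouse. Negative and OSN libraries of a number come from the same mouse per the labels, and MexHT and HT negative libraries of the same number deviated together (correlations 0.337, 0.418 and 0.231). Values with the replicate block are printed where they change a call. The members, lists and tests were chosen with earlier results of these data known. Genes were named as the 7 members, list genes, and for each member the nearest 3 genes averaging 5 TPM or more, passing over predicted genes and pseudogenes. The fits were tested on simulated data. Editing sites were not analysed here.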

Additional observations from a re-analysis of the deposited data

Results flagged for a closer look

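Nfic in the first MexHT negative library, at 58.65 TPM, lay far above the other 4 libraries of that group, which were at 40.8 to 45.9 TPM. It was the single flag among 14 groups of libraries checked gene by gene, and chance flags about 1 in 20 such groups. That library also had the highest sums of sustentacular markers (3248 TPM) and horizontal basal markers (1206 TPM) of its group, and their part in the Nfic level was not tested.

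Ncam2 was flagged for its interaction of construct and fraction only when the mouse was a block, at -0.5905 on the log2(TPM + 1) scale (limma adjusted p = 0.0311). In the main fit, without the block, it was -0.67 and was not called (limma adjusted p = 0.166). OSN exceeded negative cells in 3 of 3 HT pairs and 3 of 5 MexHT pairs.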

How the results depend on the processing

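Alternatives were pseudocount 0.1, no filter on low values, median-of-ratios scaling, voom on recovered counts, the replicate block, all 4 groups in one fit, the Xist covariate and leaving out each library. Over 630 refits of the 42 member changes, 17 lost a call, 12 gained one and 33 turned sign, the last all in changes that were not called; the rest kept direction and side of the threshold. The cause was not tested. For MexHT against HT OSN the Xist covariate gave 0 members and 329 genes. Same-numbered MexHT and HT OSN libraries had correlations of 0.115, 0.132 and -0.228, while the negative libraries of the same numbers deviated together. What a number shared between constructs stands for was not tested. The replicate block gave 3 members and 4801 genes there, with Nqo1 at -0.73 (limma adjusted p = 0.0647) and Acsm4 at 0.30. Between negative cells 1 gene was called with no filter and 23 with all 4 groups in one fit, and the block left 0 members and 0 genes. For MexHT OSN against negative cells voom called 4 members, and Ncam2 turned to -0.11 with median-of-ratios scaling and -0.14 with voom. For HT OSN against negative cells 0 members were called with all 4 groups in one fit, 1174 genes with voom (88 higher and 1086 lower, against 371 and 1552) and 4967 with the block, and Acsm4 turned to -0.0109 with voom. With gg8tTA, pseudocount 0.1 gave 646 genes. For the interaction the block called 1 member and put Nfia at 0.00304, and the calls split into 1184 higher and 902 lower, but 714 and 1053 with median-of-ratios scaling and 695 and 962 with voom. The block changed no other call beside those given with the results.

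Leaving out 1 library gave, for MexHT against HT OSN, 3745 to 6506 genes and Acsm4 from -0.34 to 0.13; between negative cells, 0 to 4 genes and Nfib from -0.0576 to 0.0707; for MexHT OSN against negative cells, Ncam2 from -0.10 to 0.15. For HT OSN against negative cells it gave 0 to 2 members, 660 to 4183 genes, Nqo1 from -0.79 to 0.21, Acsm4 from -0.40 to 0.38 and Nfia from -0.23 to 0.0680. With gg8tTA it gave 0 to 3 members, 0 to 3703 genes and Nfib from -0.44 to 0.12, and for the interaction 1195 to 2483 genes, Nqo1 from -0.53 to 0.46 and Nfia from -0.25 to 0.0454. Each of the 7 genes had 58 or more counts in every library, so depth limits low genes of the lists more than these.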
